A study of Mus musculus with 2 samples.

Results

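Serum response factor (SRF) and its myocardin-related cofactors were examined as genes whose own chromatin was read by ATAC-seq, an assay in which the Tn5 transposase cuts open DNA and leaves more reads where chromatin is accessible. The 4 genes were Srf, Mrtfa, Mrtfb and Myocd, and their members were every peak of the deposited table assigned to 1 of these gene symbols. There were 32 such peaks among 63316, of which 2 belonged to Srf, 13 to Mrtfa, 12 to Mrtfb and 5 to Myocd. In both libraries the cells were primary cardiac fibroblasts of the mouse that received TGF-β (5 ng/ml, 24 h), a stimulus that drives fibroblasts towards the contractile myofibroblast state. The cells had been transfected with scrambled siRNA (SCR, labelled NC) or with siRNA against the mechanosensitive channel Piezo2 (siPiezo2). The methods give C57BL/6 J as the background of the study's mouse strains. Sex, age and pooling of the donor mice are not given in the sources used here. The comparison asked whether the genes of this mechanosensing transcription factor and its partners were differently accessible once Piezo2 was knocked down.

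Each condition was read in 1 library, which leaves the differences between conditions without a replicate check, and no test of the conditions was made. A density is the number of reads per kb in a window of 2000 bp around a peak, normalized by the authors between the libraries. A log2 ratio is that of siPiezo2 to SCR after adding 1 to each density, and a peak or gene was called lower below 0.66 of SCR and higher above 1.5 of SCR. In all, 4615335 reads fell in the windows of SCR and 2754046 in those of siPiezo2, a ratio of 0.597, and the 32 member peaks held 34 to 179 reads in SCR and 24 to 106 in siPiezo2. For a single ratio, bracketed ranges are 95% exact binomial (Clopper-Pearson) intervals, and for a difference of log2 ratios they are 95% normal approximations. Both cover counting error only. Peaks called in both libraries with as many reads as the members (62 to 285 in all) varied with 2.11 times the variance of counting. Intervals widened by this, also normal approximations, are given where they change the reading. The factor comes from the siPiezo2 to SCR ratios themselves, so it holds any difference between the conditions and is not a replicate spread. Of 10 fibroblast markers, 8 had a peak within 1 kb of a start (Thy1 and Lum had none), against 1 of 7 cardiomyocyte, 0 of 5 endothelial, 0 of 5 leukocyte and 1 of 5 smooth muscle and pericyte markers. The summed density of the fibroblast markers was 455 in SCR and 400 in siPiezo2 while their median went from 36.0 to 44.2, with 6 of the 8 lower in siPiezo2 and 2, Pdgfra and Dcn, higher. The sum of the cardiomyocyte markers was 15.4 and 16.9 and that of the smooth muscle and pericyte markers 32.6 and 23.9, and the part of cell makeup in the results was not tested. Piezo2 itself, whose siRNA acts on RNA and is not checked by this assay, summed to 334 in SCR and 242 in siPiezo2 over 14 peaks.

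SRF is a MADS-box transcription factor that binds the CArG box, a short AT-rich element found at cytoskeletal, contractile and immediate-early genes. It recruits either ternary complex factors of the ETS family, which follow growth factor signalling, or cofactors of the myocardin family. MRTF-A and MRTF-B, the products of Mrtfa and Mrtfb, are held by monomeric actin and enter the nucleus when actin is assembled into filaments, which ties SRF to cell tension. Myocardin, the product of Myocd, lacks this restraint and is best known from cardiac and smooth muscle.

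The start regions of Srf, Mrtfa and Mrtfb are shown because a peak covered each of them, and they differ in whether they hold SRF's own element. The 250 bases before each start were taken from RefSeq on GRCm38.p6, and the capitals mark matches, on either strand, to the CArG box (2 Cs, 6 bases of A or T, 2 Gs), GGAATG of TEAD factors, TGANTCA of AP-1, GGGCGG of SP1 and CCGGAA of ETS factors. Srf lies on the minus strand of chromosome 17 (chr17:46556163-46556412), Mrtfa on the minus strand of chromosome 15 (chr15:81190737-81190986) and Mrtfb on the plus strand of chromosome 16, with a main start (chr16:13256231-13256480) and an inner start 101940 bp downstream (chr16:13358171-13358420).
Srf: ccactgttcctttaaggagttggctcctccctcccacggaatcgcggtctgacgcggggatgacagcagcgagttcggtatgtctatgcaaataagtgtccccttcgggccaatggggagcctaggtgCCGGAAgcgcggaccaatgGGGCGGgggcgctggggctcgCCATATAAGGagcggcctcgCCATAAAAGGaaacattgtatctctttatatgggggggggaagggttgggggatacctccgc
Mrtfa: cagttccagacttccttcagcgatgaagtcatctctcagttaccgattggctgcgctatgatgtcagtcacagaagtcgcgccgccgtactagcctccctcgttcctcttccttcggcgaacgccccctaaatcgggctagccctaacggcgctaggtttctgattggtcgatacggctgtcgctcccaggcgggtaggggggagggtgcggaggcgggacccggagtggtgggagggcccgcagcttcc
Mrtfb main start: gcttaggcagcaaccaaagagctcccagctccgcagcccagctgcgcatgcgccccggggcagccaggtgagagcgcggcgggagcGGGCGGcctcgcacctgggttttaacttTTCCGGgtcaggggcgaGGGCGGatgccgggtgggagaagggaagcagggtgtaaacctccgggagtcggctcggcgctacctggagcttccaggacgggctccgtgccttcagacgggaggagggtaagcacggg
Mrtfb inner start: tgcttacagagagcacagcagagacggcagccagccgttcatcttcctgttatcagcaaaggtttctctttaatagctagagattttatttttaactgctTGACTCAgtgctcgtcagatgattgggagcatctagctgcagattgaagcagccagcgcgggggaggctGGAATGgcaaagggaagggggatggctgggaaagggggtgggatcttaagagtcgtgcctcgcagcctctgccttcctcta

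The Srf window held 2 CArG boxes, at bases -82 to -73 and -62 to -53 from the RefSeq start, next to an SP1 match and an ETS match. At least 1 CArG box stood in 1.47% of 32851 windows of the same length, and at least 2 in 6 windows (0.0183%). The Mrtfa window shown held none of these motifs, nor CAGACA of SMAD factors, which stood in 17.1% of all windows. A second RefSeq start of Mrtfa, not shown, had 1 SMAD match at -232 to -227 and no other. The main Mrtfb window held 2 SP1 matches (a match in 32.7% of windows) and 1 ETS match (12.0%), and another RefSeq window of Mrtfb that overlaps it held 3 SP1 matches and 1 ETS match. The inner Mrtfb window held 1 AP-1 match (6.75%) at -150 to -144 and 1 TEAD match (12.6%) at -81 to -76. These letters describe the windows, and no binding was measured here. Peak positions below are those of the deposited table, whose gene coordinates are not those of GRCm38, so windows and peaks were related only through their distance from the same transcript's start. By that distance each of the 4 windows lay wholly inside a peak.

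Under the authors' normalization the log2 ratios of the 4 genes fell on both sides of 0, and none passed the fold thresholds. Summed over its peaks, the density of Srf was 135 in SCR against 123 in siPiezo2, with a log2 ratio of -0.13 (-0.40 to 0.13). Mrtfa had 390 and 339, a log2 ratio of -0.20 (-0.36 to -0.049). Mrtfb had 323 and 339, a log2 ratio of 0.070 (-0.092 to 0.23). Myocd had 102 and 112, a log2 ratio of 0.13 (-0.15 to 0.42). SRF's gene and that of MRTF-A were thus read slightly lower and those of MRTF-B and myocardin slightly higher, and under the authors' normalization Mrtfa alone had a counting interval without 0, which included 0 once widened (-0.43 to 0.019). Across all 16934 genes with a peak the median log2 ratio was -0.093, with 6.21% called lower and 1.54% called higher, against 0 of 4 and 0 of 4 here. Mrtfa lay below Mrtfb by a difference of -0.27 in log2 ratio (-0.49 to -0.053, widened -0.59 to 0.047) and below Myocd by -0.34 (-0.65 to -0.018, widened -0.80 to 0.13). In both differences the Mrtfa sum leaves out the peak over its start, which carries another symbol. With that peak the log2 ratio of Mrtfa was -0.12 (-0.26 to 0.019), and the differences were not recomputed. The other 4 pairs of genes had counting intervals of their difference that included 0, and the widened interval included 0 for every pair. In bulk chromatin, fewer cells of a type and less open chromatin per cell cannot be told apart.

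The log2 ratios were also computed under other scalings of the libraries. Scaling to the same total of reads, by the median of ratios or by a trimmed mean moved the median of all genes up by 0.12 to 0.14 on the log2 scale. Srf then had log2 ratios of -0.19, 0.0076 and 0.011, so it stood just above 0 under the last pair, while Mrtfa stayed below 0 (-0.071, -0.064 and -0.061). Mrtfb (0.20, 0.21 and 0.21) and Myocd (0.34, 0.27 and 0.27) stayed above it. The counting interval of Mrtfa included 0 under each of the 3 scalings, while that of Mrtfb left it out under each and that of Myocd under the same total, and all widened intervals included 0. Relative to the median of all genes, Srf lay at -0.038, -0.22, -0.035 and -0.035 under the authors' normalization and the 3 scalings, so its distance below the median grew only under the same total. In the same order Mrtfa lay at -0.11, -0.10, -0.11 and -0.11, Mrtfb at 0.16, 0.17, 0.17 and 0.17, and Myocd at 0.23, 0.31, 0.23 and 0.23. The median of ratios and the trimmed mean shift all genes nearly alike, so they could move the sign of a gene but hardly its place beside that median, and only the same total is a separate check of it.

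**Figure D1:**
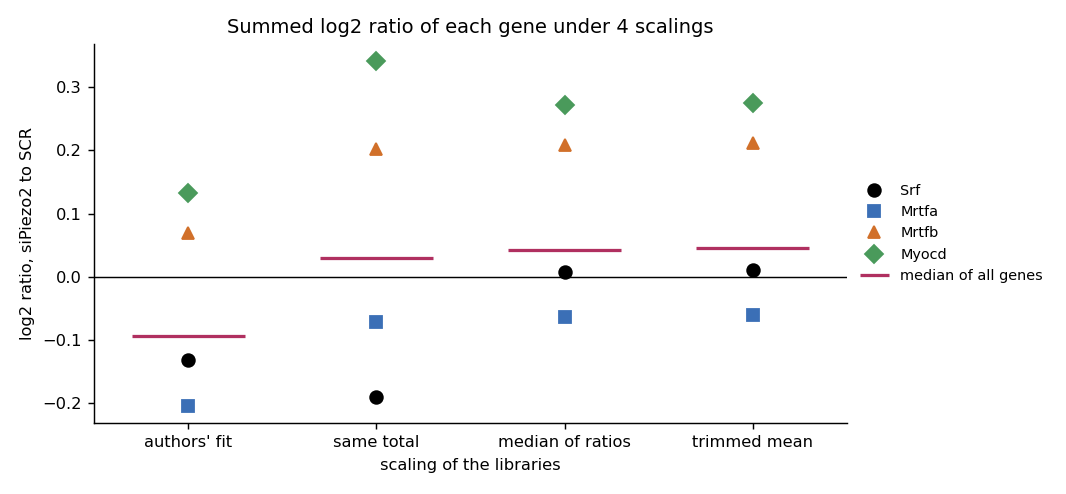
Log2 ratio of siPiezo2 to SCR for each gene, from densities summed over its peaks (vertical axis), under the authors' normalization and 3 other scalings of the libraries (horizontal axis), with the median of all genes as a bar. Srf and Mrtfa lie below the bar and Mrtfb and Myocd above it in each column. Srf lies above 0 only under the median of ratios and the trimmed mean.

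Over the 32 peaks the median log2 ratio was -0.0080, with quartiles of -0.35 and 0.15, against -0.13 over all peaks, and 16 of the 32 lay below 0 (63.7% of all peaks did). There were 4 member peaks called lower (12.5% of the 32), against 13.5% of all peaks, and 2 called higher (6.25%), against 3.21%. Under the 3 scalings the split over all peaks turned from 8566 lower and 2032 higher to 4624 and 4940, 5239 and 3927, and 5212 and 3993, and that of the 32 from 4 lower and 2 higher to 2 and 4, 3 and 2, and 3 and 2. The counting interval left out 0 at 6 of the 32 member peaks, against 15.0% of all peaks, and the widened interval at 0 of them, against 4.92% of all peaks. These shares were near those of all peaks, so the counts set the 32 peaks apart in neither direction. Within introns, 25 member peaks had a median of 0.0038, against -0.17 over all intron peaks. In 15 of the 32 a peak had been called in both libraries and in 17 in SCR only, with 0 called in siPiezo2 only, against 33.8%, 64.0% and 2.16% of all peaks. The smaller depth of the siPiezo2 library moves with this imbalance, and its part in it was not tested.

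**Figure D2:**
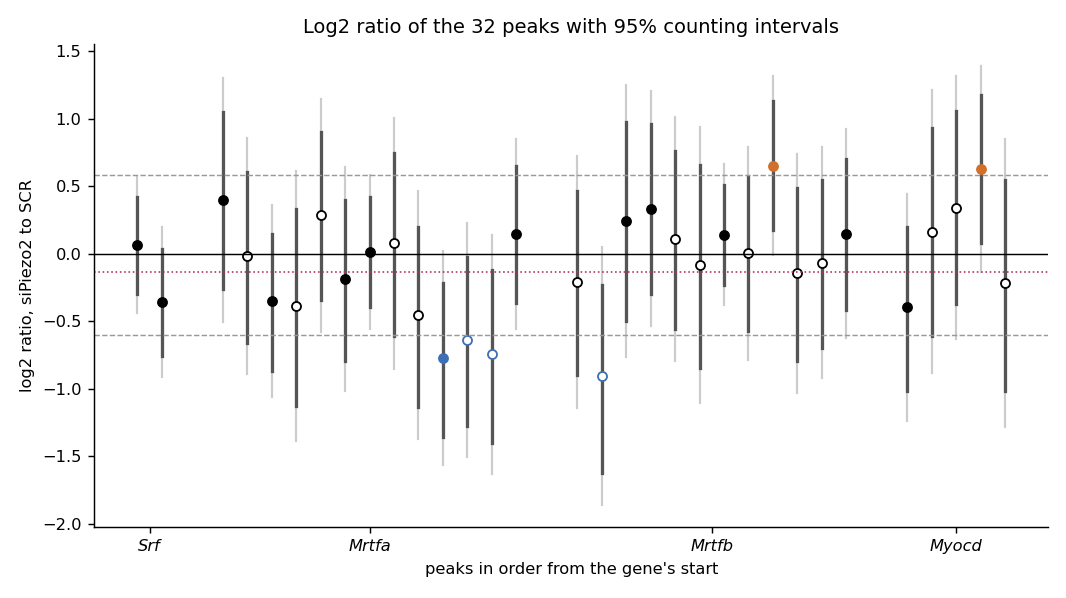
Log2 ratio of siPiezo2 to SCR (vertical axis) of the 32 peaks, in order from each gene's start, with 95% counting intervals (dark) and widened intervals (light). Filled points were called in both libraries and open ones in SCR only, blue marks peaks below 0.66 of SCR and orange those above 1.5 (dashed lines), and the dotted line is the median of all peaks, -0.13. The blue points are 3 neighbouring Mrtfa peaks and 1 Mrtfb peak.

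Srf, the gene of the DNA-binding partner, is compact (7847 bp in its main transcript), and both of its peaks were strong and called in both libraries. The peak over its start (chr17:46867018-46867470), which reaches from the promoter into exon 1 of 7 and covers both CArG boxes by distance, had a density of 67.9 in SCR against 71.0 in siPiezo2, from 179 and 106 reads. Its log2 ratio was 0.064 (-0.30 to 0.42), and its mean density exceeded that of 97.1% of all peaks. The inner peak (chr17:46863708-46864341) lay 2760 to 3393 bp downstream of the start, in intron 2, and the table classes it by a shorter transcript that starts nearby. There the density was 67.3 in SCR and 52.3 in siPiezo2, from 175 and 79 reads, a log2 ratio of -0.36 (-0.76 to 0.036). The start of Srf was therefore read at nearly the same density in both libraries, and the lower sum of the gene came from the inner peak. The difference between the peaks, inner minus start, was -0.42 (-0.94 to 0.097), within counting error.

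Mrtfa, which encodes the actin-regulated cofactor MRTF-A, spans 178453 bp and stood at percentile 98.1 of genes by its number of peaks, with 7.28 per 100 kb. Among 3783 genes spanning 50 to 200 kb the median was 3.71 peaks per 100 kb, and 2.91% of them had at least 12 peaks. No peak assigned to Mrtfa lay over its own start. The peak there (chr15:81074851-81075312, from -378 to 83 bp around the start) carries the symbol of the divergent transcript 4930483J18Rik, and was added as an alternative after its values were seen. It had a density of 68.1 in SCR against 82.8 in siPiezo2, from 181 and 123 reads, a log2 ratio of 0.28 (-0.065 to 0.62), and its window shares reads with a neighbouring peak. Including it, the summed log2 ratio of Mrtfa was -0.12 (-0.26 to 0.019), so the counting interval that left out 0 without it now included 0.

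Inside Mrtfa the densities ran from 18.4 to 53.9 in SCR and from 16.0 to 54.5 in siPiezo2. The strongest of its peaks, in intron 3 (chr15:80971021-80971651), had 53.9 in SCR and 54.5 in siPiezo2, for a log2 ratio of 0.016 (-0.39 to 0.42). Further along the gene, 3 peaks in introns 3 and 4 were called lower. The first (chr15:80954714-80955031) had 40.8 in SCR and 23.5 in siPiezo2, from 100 and 37 reads, a log2 ratio of -0.77 (-1.36 to -0.21). The second (chr15:80946567-80946889) had 31.7 and 20.0, from 76 and 32 reads, a log2 ratio of -0.64 (-1.28 to -0.022). The third (chr15:80917110-80917398) had 32.2 and 18.8, from 77 and 30 reads, a log2 ratio of -0.75 (-1.41 to -0.12). All 3 were lower in siPiezo2 beyond counting error, and the widened interval of each included 0. Under the same total, the median of ratios and the trimmed mean, the first kept its call, the second lost it in each case (-0.48, -0.50 and -0.50) and the third lost it under the same total (-0.59). The peak before them in the gene (chr15:80958004-80958252), also called in SCR only, had 25.8 and 18.6, a log2 ratio of -0.45 (-1.13 to 0.20). These 4 neighbours, which span 41.1 kb and were grouped after their values were seen, summed to 131 in SCR and 80.9 in siPiezo2, while the other 9 peaks summed to 260 and 258. That contrast was fixed by the choice of peaks. A split by intron number was also made after the values were seen. All 7 peaks of introns 3 and 4, which include the 4 grouped above, had a summed log2 ratio of -0.30 (-0.50 to -0.093, widened -0.59 to -0.0049). The other 6 had one of -0.069 (-0.31 to 0.17). The difference was -0.23 (-0.54 to 0.083), within counting error, and 3 of the 7 lay above 0. The remaining peaks ranged from -0.39 to 0.40, and all of their counting intervals included 0.

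**Figure D3:**
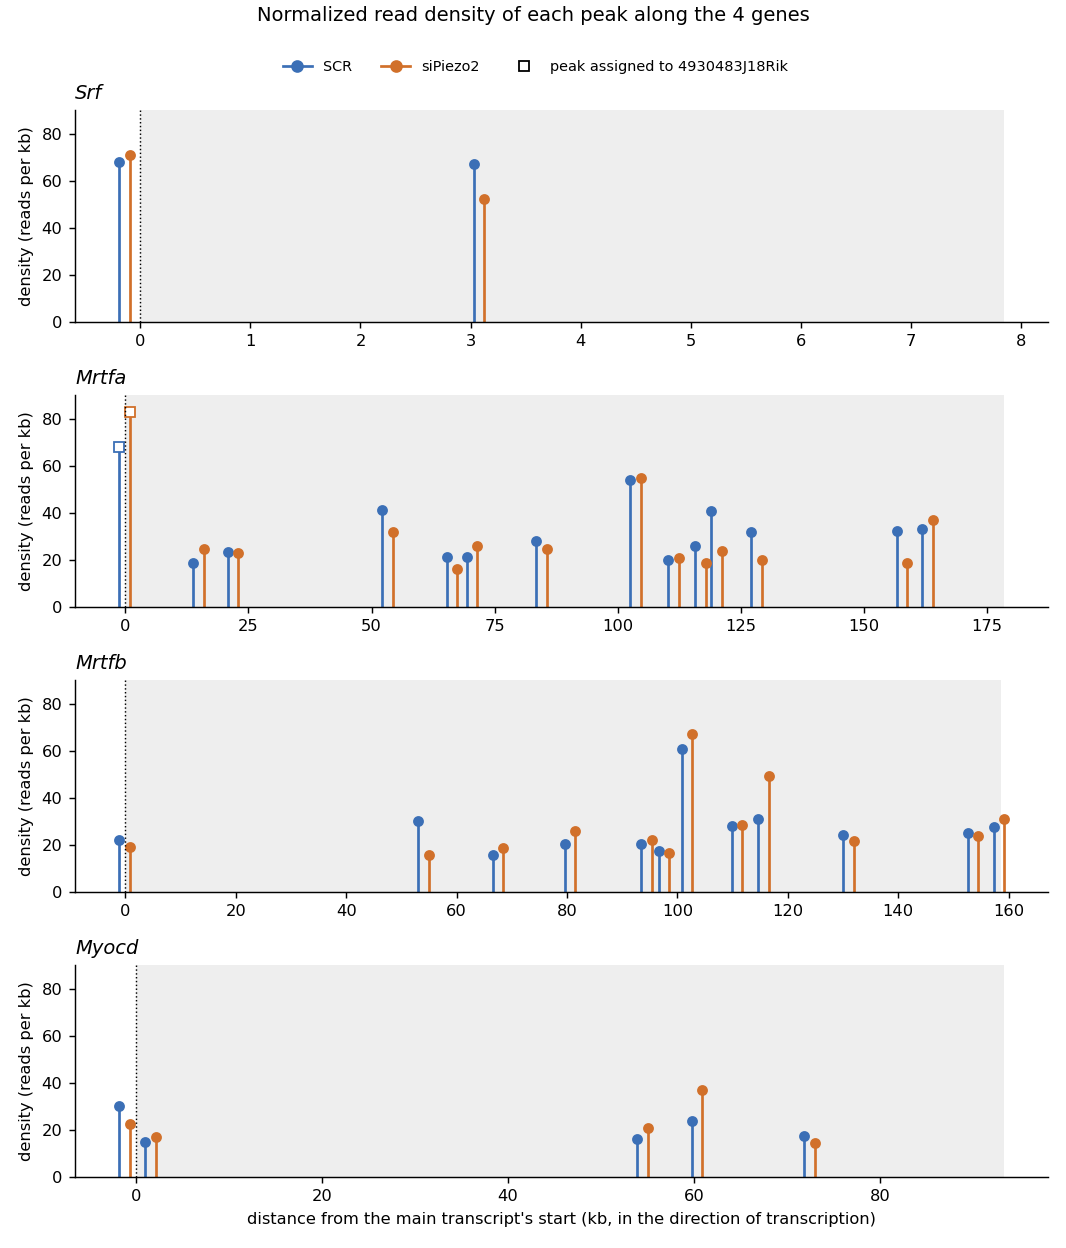
Normalized read density in SCR (blue) and siPiezo2 (orange) of each peak against its distance from the start of the main transcript in kb, with the transcript shaded and each pair of points set slightly apart. Squares show the peak over the Mrtfa start that carries the symbol of 4930483J18Rik. In Mrtfa the siPiezo2 points lie below the SCR points at 4 neighbouring peaks in its distal part, and in Mrtfb the tallest pair stands about 102 kb inside the gene.

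Mrtfb, which encodes the closely related MRTF-B, spans 158583 bp with 12 peaks, or 7.57 per 100 kb, and its strongest peak was not at its main start. The peak over the main start (chr16:13073970-13074425) was called in SCR only and had 22.2 in SCR and 19.1 in siPiezo2, from 52 and 31 reads, a log2 ratio of -0.21 (-0.90 to 0.46). Its mean density exceeded that of only 13.4% of promoter peaks within 1 kb. The peak over the inner start (chr16:13175640-13176443), between neighbours that both lie in intron 3, had 60.7 in SCR and 67.2 in siPiezo2, from 159 and 101 reads, a log2 ratio of 0.14 (-0.23 to 0.51). The inner start was thus the more accessible one in both libraries, with a log2 ratio of reads, inner over main, of 1.61 (1.15 to 2.09) in SCR and 1.70 (1.11 to 2.33) in siPiezo2.

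Around that inner start Mrtfb held a higher and a lower peak. The higher one (chr16:13189652-13190197, intron 3) had 30.9 in SCR and 49.2 in siPiezo2, from 77 reads in each library, a log2 ratio of 0.65 (0.18 to 1.13, widened -0.0090 to 1.32). The lower one (chr16:13128121-13128534, intron 2) had 30.0 in SCR and 15.6 in siPiezo2, from 71 and 25 reads, a log2 ratio of -0.90 (-1.62 to -0.23, widened -1.86 to 0.052). The former had been called in both libraries and the latter in SCR only. Summed by intron after their values were seen, the 5 peaks classed to intron 3 had a log2 ratio of 0.27 (0.013 to 0.53, widened -0.095 to 0.64) and the other 7 one of -0.061 (-0.27 to 0.15). The 8 peaks that were neither over a start nor past a threshold ranged from -0.15 to 0.33, among them a peak in the 3' UTR (27.6 in SCR, 30.8 in siPiezo2), and their counting intervals included 0.

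Myocd, whose product acts in cardiac and smooth muscle, had the lowest densities per peak of the 4 genes, with 5 peaks in 93381 bp (5.35 per 100 kb) and no peak over its main start. Its median density per peak was 17.1 in SCR and 20.7 in siPiezo2, against medians of 24.4 to 67.6 and 22.9 to 61.7 in the other genes. Its nearest peaks stood either side of the start. The upstream one (chr11:65161900-65162172, from -1405 to -1133 bp from the start) had 30.0 in SCR and 22.5 in siPiezo2, for a log2 ratio of -0.40 (-1.02 to 0.20). The one in intron 1 (chr11:65159133-65159372) had 15.0 and 16.9, a log2 ratio of 0.16 (-0.61 to 0.93). In intron 5, a peak (chr11:65100201-65100648) that was the strongest of the gene in siPiezo2 but not in SCR had 23.6 in SCR and 36.9 in siPiezo2, from 57 and 59 reads, a log2 ratio of 0.63 (0.078 to 1.18, widened -0.14 to 1.39), and was called higher. A second intron 5 peak (chr11:65106193-65106422) had 16.1 and 20.7, a log2 ratio of 0.34 (-0.37 to 1.05). The last, in intron 7 (chr11:65088210-65088420), had 17.1 and 14.6, a log2 ratio of -0.22 (-1.02 to 0.55). The positive sum of the gene thus rested on the intron 5 peaks.

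Set in order by reads, the start regions ran from Mrtfa (181 in SCR, 123 in siPiezo2) through Srf (179 and 106) and the inner start of Mrtfb (159 and 101) to the main start of Mrtfb (52 and 31). The order was the same in both libraries. Between neighbours among the first 3 the difference was within counting error in both libraries, with a log2 ratio of Mrtfa over Srf of 0.016 (-0.29 to 0.32) in SCR and 0.21 (-0.17 to 0.60) in siPiezo2. Srf over the inner start of Mrtfb gave 0.17 (-0.15 to 0.49) and 0.070 (-0.34 to 0.48).

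The genes around SRF were read next, from lists of other SRF partners, MRTF-type targets and TCF-type immediate-early targets. Of the targets that SRF shares with MRTFs, 18 of 19 had a peak (Cnn2 had none), 6 were called lower and 0 higher, where 6.21% of all genes were lower and 1.54% higher. Their median log2 ratio was -0.37, with 15 of 18 below 0 (62.6% of all genes were), and it stayed negative under the 3 scalings (-0.42, -0.23 and -0.23), with 6, 4 and 4 called lower, where 2.92%, 3.40% and 3.38% of all genes were. Acta2, the smooth muscle actin of myofibroblasts, summed to 165 in SCR but 43.2 in siPiezo2, with a log2 ratio of -1.91. Myl9, a myosin light chain, had 74.4 and 34.7 (-1.08). Tagln, an actin-binding protein of smooth muscle, had 122 and 61.7 (-0.98). Ccn1 (-0.90) and Ccn2 (-0.65), matricellular proteins, and the actin nucleator Lmod1 (-0.70) were also called lower, Ccn2 and Lmod1 only under the authors' normalization and the same total. The highest were Zyx (0.25), of focal adhesions, and Cnn1 (0.042). The genes of SRF and its cofactors themselves lay between -0.20 and 0.13.

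Of the other SRF partners and repressors 12 of 13 had a peak (Hopx had none), and the median was -0.092, with 0.051, 0.046 and 0.049 under the 3 scalings. Relative to the median of all genes it lay at 0.0011, 0.021, 0.0036 and 0.0036. Fhl2, a LIM-domain cofactor that binds SRF, was called lower (519 in SCR and 341 in siPiezo2, for a log2 ratio of -0.60) under the authors' normalization only, with Csrp2 next (-0.54), and Gata4 (0.23) and Smad3 (0.21) stood highest.

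The 9 TCF-type immediate-early targets had a median of -0.057, with 8 of 9 below 0 (62.6% of all genes were), and medians of -0.18, 0.079 and 0.082 under the 3 scalings, with 7, 2 and 2 of 9 below 0. Relative to the median of all genes the list lay at 0.037, -0.21, 0.036 and 0.036 under the authors' normalization and the 3 scalings, so that its side of that median turned under the same total only. Egr2 was called lower under the authors' normalization only (92.0 in SCR and 58.3 in siPiezo2, for a log2 ratio of -0.65), followed by Ier2 (-0.28), and Nr4a1 (0.097) and Mcl1 (-0.00047) were highest. The genes of YAP, TAZ and TEAD, another mechanosensing module, had a peak in 5 of 6 cases and a median of -0.19, with -0.095, -0.051 and -0.048 under the 3 scalings. Of these, Tead3 was called lower (153 in SCR and 101 in siPiezo2, for a log2 ratio of -0.60) under the authors' normalization only, followed by Wwtr1 (-0.24), with Tead4 (0.075) and Yap1 (0.060) highest. The lists describe these libraries and were not tested against each other.

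**Figure D4:**
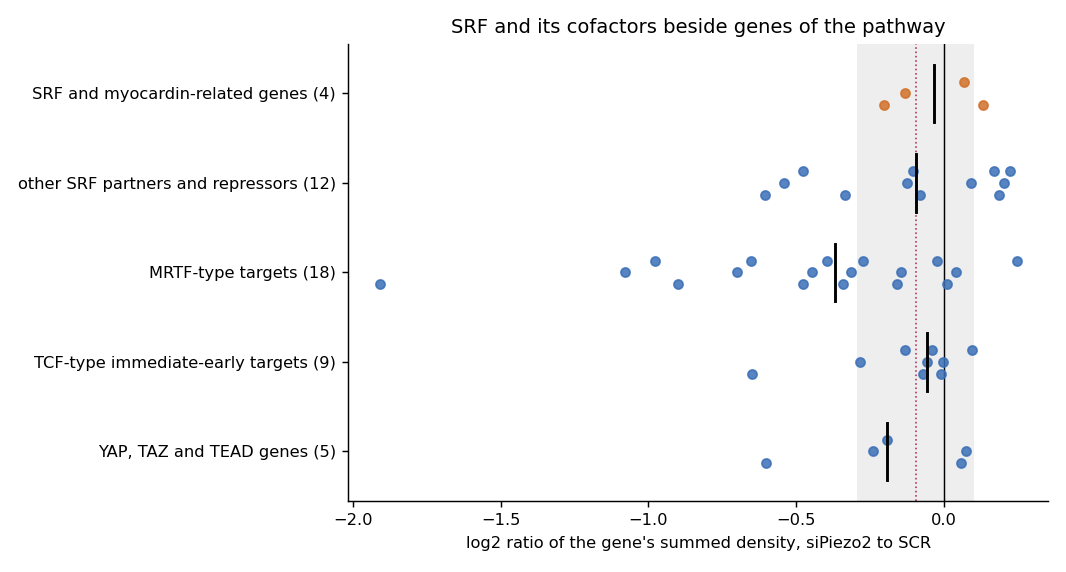
Log2 ratio of siPiezo2 to SCR of summed density (horizontal axis) for each gene of 5 lists, with the number of genes with a peak in brackets, list medians as black bars, and the quartiles (grey) and median (dotted) of all genes. The 4 SRF and cofactor genes (orange) lie between -0.20 and 0.13, while the MRTF-type targets reach down to -1.91.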

How the data were processed

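ATAC-seq libraries of TGF-β-treated murine cardiac fibroblasts, 1 for SCR and 1 for siPiezo2, were grouped by their labels. The authors aligned reads with BWA (0.7.12 in the submitters' notes, which name mm10), removed duplicates with Picard and called peaks with MACS2. The deposited signal columns are read densities that the authors had normalized by fitting the log2 ratio linearly to the mean log2 density. The normalization tool is not given in the sources used here. Columns of the authors' log2 ratios, mean log2 densities and p-values were not used. The deposited series text names a Tet3 knockout with Cre, while minced tissue and a different kit appear in the methods. Which is right could not be settled.

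Reads were recovered from the densities as whole numbers (within 0.05) for 100% of peaks in windows of 2000 bp, with a fit intercept of -0.25 and slope of 0.17 found from the data, taking 1 added read per window as MA-plot tools do. Read recovery and intervals were tested on simulated data. The pseudocount was 1. Genes were summed over their assigned peaks. All 4 genes were named, and of each list those past a threshold and the 2 lowest and 2 highest. A further planned list is not reported here. Members and lists were chosen with earlier results of these data known. Alternatives were the pseudocount (0.1), 3 scalings, a 2-fold threshold, separate windows, stronger peaks, promoter peaks and the strongest peak, and, chosen after seeing the data, the Mrtfa start peak and peaks called in both libraries. Of the genes, 3 matched the RefSeq promoter table. Scripts ran in Python 3.11.15 with scipy 1.17.1, pandas 2.3.3, numpy 2.4.6 and matplotlib 3.10.9.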

Additional observations from a re-analysis of the deposited data

How the results depend on the processing

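Of 76 values recomputed under alternatives, 54 moved by less than their counting interval or tolerance and 22 moved further. No member window shares reads with another, so restricting to separate windows could only return the same 7 values and tests nothing. The sums of Srf, Mrtfb and Myocd could not change with the added Mrtfa start peak. Nor could that of Srf with the stronger peaks or with peaks called in both libraries. All of these are counted among the 54. The pseudocount, the stronger peaks, promoter peaks only and the added start peak of Mrtfa left every recomputed value within its counting interval or tolerance. With the stronger peaks Mrtfb reached 0.21. Under the same total, median of ratios and trimmed mean, the median over the member peaks was 0.097, 0.13 and 0.13. With the same total, 2 member peaks were called lower and 4 higher, against 4 and 2, where 7.30% of all peaks were lower and 7.80% higher. The median of ratios and the trimmed mean each gave 3 lower and 2 higher, where 8.27% and 8.23% of all peaks were lower and 6.20% and 6.31% higher. With peaks called in both libraries only, Mrtfb had a log2 ratio of 0.30, the member median was 0.14, and 1 of 15 peaks was called lower and 2 higher, where 5.36% and 4.41% of all peaks called in both were. At a 2-fold threshold 0 member peaks were called lower and 0 higher, where 2.76% and 0.504% of all peaks were. By the strongest peak alone, the log2 ratio was 0.064 for Srf, whose sign turned, 0.016 for Mrtfa, whose sign turned, 0.14 for Mrtfb and 0.63 for Myocd, and promoter peaks only gave 0.064 for Srf. The list medians that moved by more than 0.1 were, under the same total, 0.051 for other SRF partners and -0.18 for TCF-type targets. Under the median of ratios they were 0.046 for other partners, -0.23 for MRTF-type targets, 0.079 for TCF-type targets and -0.051 for YAP, TAZ and TEAD. Under the trimmed mean they were 0.049, -0.23, 0.082 and -0.048 in the same order. Under both of these scalings the median of all genes moved by 0.14, and the lists kept their distance from it to within 0.01. No paired analysis was possible because each condition had 1 library, and for the same reason no replicate could be left out. With 24 to 179 reads per member peak and library, the counting intervals of single peaks were wide, and a difference whose interval includes 0 was not detectable at this depth.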
